A study of Mus musculus with 3 samples.

Results

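The 8 genes described here encode transcription factors that direct the formation of granulocytes and monocytes in the bone marrow (BM). They are Cebpa, Cebpb, Cebpd and Cebpe of the C/EBP family, Spi1 (which encodes PU.1), Gfi1, Runx1 and Irf8. They were chosen by name and make up 8 of the 17250 gene names in the tables. Of these, 7 were found under the symbol itself. Spi1 is listed under its former symbol Sfpi1 (gene ID 20375) and was found by that symbol.

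BM cells were flushed from femur, tibia, pelvis and humerus of C57BL/6 mice aged 6 to 8 weeks. Mice of the 3-day and 5-day groups had received recombinant LECT2 (leukocyte cell-derived chemotaxin 2, a secreted chemotactic protein made mainly in the liver) under the skin once a day at 300 μg/kg, and the 0-day group had no injection days. Each time point has 1 RNA library, and the number of mice behind a library is not given in the sources used here. The labels and methods speak of flushed BM cells, and a figure legend of the study of BM mononuclear cells, a fraction that would hold few mature granulocytes. In either case mixed cell types were sequenced together, so a lower share of a cell type and less RNA per cell cannot be told apart.

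Myeloid cells arise from stem and progenitor cells under a small set of transcription factors. PU.1 and C/EBPα open the myeloid programme in progenitors, where RUNX1 acts upstream of PU.1. Gfi1 and C/EBPε then take cells toward neutrophils, Irf8 takes them toward monocytes and dendritic cells, and C/EBPβ and C/EBPδ are induced by cytokines and stress. C/EBP proteins pair through a leucine zipper and bind closely related DNA sites, so the balance between them is often described as well as the level of each.

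The 250 bases before the start of Cebpa, Cebpb and Irf8 are shown because these are, among the 7 detected members, that with the highest ratio at 5 days, that with the lowest, and the most abundant of those at least 1.5-fold higher. The sequences are from RefSeq on GRCm38.p6, plus strand, which holds windows for 5 of the 8 members (Cebpa, Cebpb, Gfi1, Runx1 and Irf8). They lie at chr7:35119043-35119292 for Cebpa, chr2:167688665-167688914 for Cebpb and chr8:120736108-120736357 for Irf8. Capitals mark TATAAA (the TATA box), TGACG (a half-site of CREB and ATF factors), TTGCG (a half-site of C/EBP factors) and TTCNNNGAA (a STAT element), each searched on both strands. The RUNX site TGTGGT, the PU.1 core GAGGAA and the GFI1 core AATCAC were searched in the same way and are not marked.
Cebpa: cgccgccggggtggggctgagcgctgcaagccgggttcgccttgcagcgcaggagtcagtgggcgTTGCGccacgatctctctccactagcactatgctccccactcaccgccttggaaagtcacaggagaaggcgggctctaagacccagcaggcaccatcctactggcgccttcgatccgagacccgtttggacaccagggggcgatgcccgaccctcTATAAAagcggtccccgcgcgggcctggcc
Cebpb: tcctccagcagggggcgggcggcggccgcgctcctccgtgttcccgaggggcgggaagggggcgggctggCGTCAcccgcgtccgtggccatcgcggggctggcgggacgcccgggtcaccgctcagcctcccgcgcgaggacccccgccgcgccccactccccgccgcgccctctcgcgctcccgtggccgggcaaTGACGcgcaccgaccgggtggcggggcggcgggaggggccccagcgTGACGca
Irf8: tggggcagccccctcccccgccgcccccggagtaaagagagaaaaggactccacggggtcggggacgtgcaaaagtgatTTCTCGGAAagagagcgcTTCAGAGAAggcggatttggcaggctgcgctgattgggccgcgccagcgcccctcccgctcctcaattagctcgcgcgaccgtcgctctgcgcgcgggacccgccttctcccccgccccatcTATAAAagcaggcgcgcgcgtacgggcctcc
The Cebpa window held TATAAA 30 bases before the start and 1 match to TTGCG, 185 bases before it. In the Cebpb window TATAAA was not found, and TGACG was found 3 times, beginning 180, 53 and 7 bases before the start, the first of them on the minus strand. The Irf8 window held TATAAA 31 bases before the start and 2 matches to TTCNNNGAA, beginning 171 and 153 bases before it, which did not overlap. It also held AATCAC on the minus strand, beginning 176 bases before the start and sharing 1 base with the first of these. TGTGGT and GAGGAA were not found in these windows. A second Irf8 window, before a start at chr8:120738639, is not shown and held no match to any of the motifs searched. Of all 32851 windows of the same length, 12.4% held TATAAA, 17.8% TGACG, 14.5% TTGCG, 7.02% TTCNNNGAA, 14.0% TGTGGT, 23.3% GAGGAA and 9.14% AATCAC. These matches are a description of the letters, and no binding was measured.

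Levels are given as RPKM, the reads on a gene scaled to its length in units of 1000 bases and to the total reads counted on genes, as deposited by the authors. In all, 15523952, 15146983 and 15514673 reads were counted on genes at 0, 3 and 5 days. Changes are log2 ratios of RPKM after addition of 0.1, so those of weakly expressed genes are understated. The 95% exact (Clopper-Pearson) intervals were made from both read counts of a gene, and the only error they cover is that of counting. With 1 library per time point no difference has a replicate check and no test of the time points was possible. The comparisons at 3 and 5 days share the 0-day library. Among genes that reached 1 RPKM in either library, the median of all log2 ratios was 0.09 (3 days against 0 days), 0.31 (5 days against 0 days) and 0.25 (5 days against 3 days). Scaling by trimmed mean of M values (TMM) brought these medians to 0.01, 0.01 and 0.03. Of the genes at least 2-fold changed, 62.9%, 72.4% and 36.1% were higher in these comparisons with the deposited RPKM, and 49.7%, 42.2% and 11.9% with TMM. The ratios also followed gene length, with a median of -0.09 in the length decile of Spi1 and Cebpe and 0.85 in that of Runx1 at 5 days. Ratios with this trend removed are therefore given for the members.

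Of the 8 factors, 7 were well detected in BM and 1, Gfi1, was close to the floor of detection. Spi1 had the highest level of the 8 in each library, with 193, 247 and 215 RPKM at 0, 3 and 5 days. At 0 days this was above 97.5% of the gene names that had reads in that library. PU.1, its product, is an ETS factor of myeloid cells and B cells. At 0 and 3 days the order below Spi1 was Cebpb, Irf8, Cebpe, Cebpd, Cebpa, Runx1 and Gfi1. At 5 days Irf8 stood above Cebpb, and Cebpa stood above Cebpd. Neighbours in these orders differed beyond the counting intervals in each library. Whether they differ beyond the spread between animals cannot be told from 1 library.

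**Figure D1:**
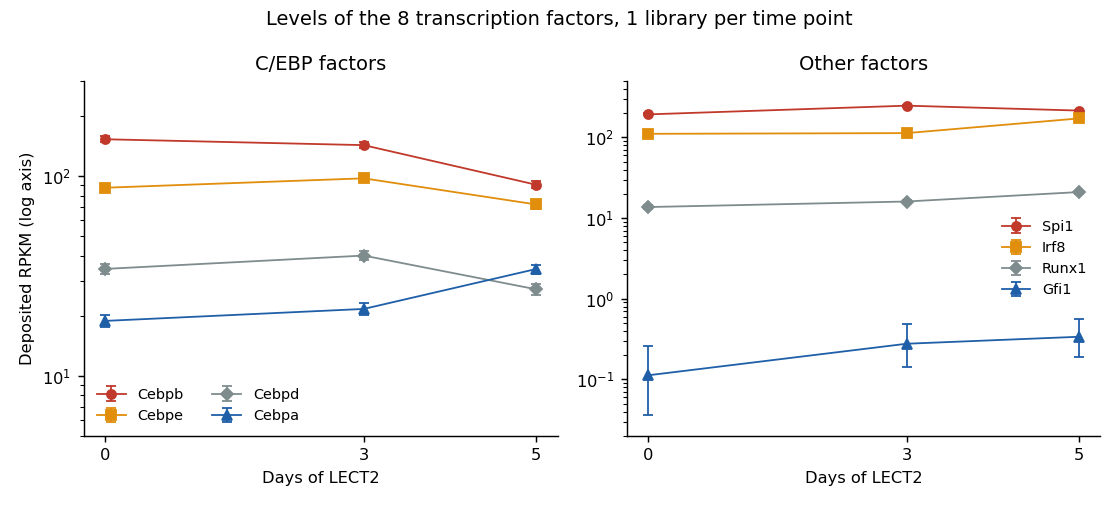
Deposited RPKM (log axis, a different range in each panel) of the 4 C/EBP factors (left) and of Spi1, Irf8, Runx1 and Gfi1 (right) against days of LECT2, 1 library per point, with 95% exact Poisson intervals of the read count. Between 3 and 5 days the Cebpa line (21.6 to 34.3 RPKM) crosses the Cebpd line (40.0 to 27.1 RPKM), and Gfi1 stays below 1 RPKM.

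Against this background, 0 of the 8 factors were at least 2-fold higher or lower at 3 days, where 4.08% of all 11325 genes were higher and 2.41% lower. At 5 days against 0 days the counts were again 0 and 0, beside 15.5% of 11497 genes higher and 5.91% lower. At 5 days against 3 days they were 0 and 0, beside 1.95% of 11375 genes higher and 3.45% lower. Gfi1 did not reach 1 RPKM in any library, so the counts are over the 7 detected factors. With a threshold of 1.5-fold, Cebpa, Irf8 and Runx1 were higher at 5 days against 0 days, in a comparison in which 34.5% of all genes were, and Cebpb was lower, as were 12.3% of all genes. These counts depended on the scaling. With TMM 0 were at least 1.5-fold higher and 3 were lower (Cebpb, Cebpd and Cebpe), beside 2263 and 2390 of the 11497 genes. With the length trend removed 0 were higher and 2 lower (Cebpb and Cebpd). At the stricter 2-fold, 581 of the 11497 genes were then higher and 875 lower. At 3 days no member passed 1.5-fold in either direction, beside 16.4% of all genes higher and 10% lower. With the length trend removed Spi1 was higher (0.60), as were 911 of the 11325 genes, and 867 genes were lower. Between 5 and 3 days Cebpa and Irf8 were at least 1.5-fold higher (17.3% of all genes) and Cebpb was lower (6.86% of all genes). With TMM, and with the length trend removed, 0 were higher and 3 were lower, again Cebpb, Cebpd and Cebpe. At the stricter 2-fold, 74 of the 11375 genes were higher and 549 lower with TMM, and 75 and 561 with the length trend removed. Over the 8 factors the median was 0.21 on the log2 scale for 3 days against 0 days, and 0.38 for 5 days against 0 days. The latter was 0.078 with TMM and 0.017 with the length trend removed. Without Gfi1, a choice made after seeing the data, the median at 5 days was 0.16.

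Cebpa encodes C/EBPα, which is needed for the step from common myeloid to granulocyte and monocyte progenitors. It is a gene of 1 exon at chr7:35119293-35121928 on the plus strand (GRCm38, GENCODE M21). It had 775, 868 and 1409 reads, or 18.8, 21.6 and 34.3 RPKM, at 0, 3 and 5 days. The 0-day and 3-day libraries were close and the 5-day library stood above both. The log2 ratio was 0.20 (95% interval 0.06 to 0.34) at 3 days and 0.86 (0.74 to 0.99) at 5 days, a level 1.82-fold that of the 0-day library. With TMM scaling the value at 5 days was 0.55, and with the length trend removed it was 0.50. Its sign was thus the same under each of these scalings.

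Cebpb encodes C/EBPβ, a factor of emergency granulopoiesis and of inflammatory gene expression. It lies at chr2:167688915-167690418 on the plus strand, also as a single exon. It had 3584, 3268 and 2120 reads, or 153, 143 and 90.7 RPKM. The 5-day library was thus the low one, at 59.2% of the level of the 0-day library. The log2 ratio was -0.10 (-0.17 to -0.03) at 3 days and -0.76 (-0.84 to -0.68) at 5 days. At 5 days this lay at percentile 8.92 of all genes tested. TMM gave -1.06 at 5 days, past 2-fold, and removal of the length trend gave -0.77.

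Cebpd, the cytokine-induced C/EBPδ gene on chromosome 16, had 1204, 1370 and 951 reads and 34.3, 40.0 and 27.1 RPKM. Cebpe, which encodes the C/EBPε of late granulopoiesis on chromosome 14, had 1683, 1830 and 1387 reads and 87.6, 97.6 and 72.2 RPKM. Both were highest at 3 days and lowest at 5 days. At 3 days the log2 ratios were 0.22 (0.11 to 0.34) for Cebpd and 0.16 (0.06 to 0.25) for Cebpe, and with the length trend removed 0.19 and 0.43. At 5 days they were -0.34 (-0.46 to -0.22) and -0.28 (-0.38 to -0.18) against 0 days, and -0.56 and -0.43 against 3 days. These lower values at 5 days kept their sign with TMM (-0.65 and -0.59 against 0 days) and with the length trend removed (-0.59 and -0.18).

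The make-up of the 4 C/EBP transcripts differed at 5 days. Their summed level was 293.9, 302.4 and 224.3 RPKM at 0, 3 and 5 days. Cebpa made up 6.41%, 7.15% and 15.3% of this sum, and Cebpb 52.1%, 47.3% and 40.4%. Cebpd (11.7%, 13.2% and 12.1%) and Cebpe (29.8%, 32.3% and 32.2%) held nearly constant shares. The 5-day library thus held a higher share of Cebpa and a lower share of Cebpb, within a smaller total.

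**Figure D2:**
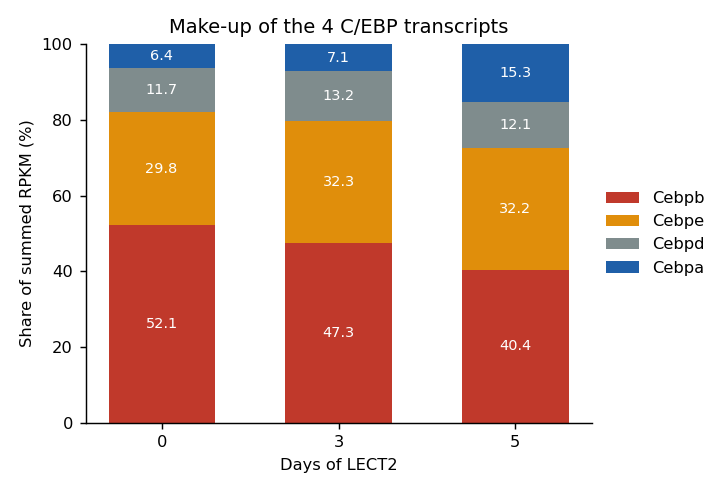
Share (%) of each C/EBP gene in the summed RPKM of Cebpa, Cebpb, Cebpd and Cebpe (stacked bars from 0) against days of LECT2, 1 library per bar. The Cebpa share is 6.41% at 0 days and 15.3% at 5 days, and the Cebpb share 52.1% and 40.4%.

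A ratio of 2 genes within a library does not depend on how that library was scaled. The ratio of Cebpa to Cebpb was 0.123, 0.151 and 0.378 at 0, 3 and 5 days, a log2 change of 0.30 (approximate 95% interval 0.14 to 0.45) at 3 days and 1.62 (1.47 to 1.77) at 5 days. With the length trend removed the change at 3 days was 0.0043. The ratio of Cebpa to Cebpd was 0.549, 0.540 and 1.26, so that Cebpa passed from below to above Cebpd. Of the 21 pairs of the 7 detected factors, 0 had a ratio changed at least 2-fold at 3 days and 5 did at 5 days against 0 days. These 5 were Cebpa to Cebpb, Cebpa to Cebpd (1.20), Cebpa to Cebpe (1.14), Cebpb to Irf8 (-1.39) and Cebpb to Runx1 (-1.37). At the other end, the ratio of Runx1 to Irf8 (0.124, 0.142 and 0.122) and that of Cebpd to Cebpe (0.392, 0.410 and 0.376) were nearly the same at 0 and 5 days, although with the length trend removed they changed by -0.44 and -0.41. At 5 days, removal of the length trend left Cebpa to Cebpb at 1.27, Cebpa to Cebpd at 1.09 and Cebpb to Irf8 at -1.01, and brought Cebpa to Cebpe to 0.68 and Cebpb to Runx1 to -0.57.

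Spi1 lies at chr2:91082390-91115756 on the plus strand. It had 3995, 4997 and 4449 reads, with the highest level at 3 days. The log2 ratio was 0.36 (0.30 to 0.42) at 3 days and 0.16 (0.09 to 0.22) at 5 days. The 5-day value is below the median of all genes and turned to -0.15 with TMM, so its direction at 5 days depended on the scaling, whereas at 3 days TMM gave 0.27. With the length trend removed the values were 0.60 at 3 days and 0.21 at 5 days. The ratio of Cebpa to Spi1, the pair that opens the myeloid programme, was 0.098, 0.087 and 0.159. Cebpb to Spi1 went the other way, with 0.794, 0.578 and 0.421.

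Irf8, on chromosome 8, encodes the interferon regulatory factor of the monocyte and dendritic cell lineages, which restrains neutrophil formation. It had 4867, 4846 and 7545 reads, or 111, 113 and 172 RPKM. The first 2 libraries were level and the 5-day library was high. The log2 ratio was 0.03 (-0.03 to 0.09) at 3 days and 0.63 (0.58 to 0.69) at 5 days. TMM gave 0.33 at 5 days and removal of the length trend 0.24. The ratio of Cebpb to Irf8 passed from 1.38 at 0 days and 1.27 at 3 days to 0.527 at 5 days.

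Runx1, on chromosome 16, encodes the DNA-binding subunit of core binding factor, which is needed for the first blood stem cells. It had 1518, 1735 and 2327 reads, or 13.7, 16.0 and 21.0 RPKM, with a step up at each time point. The log2 ratio was 0.23 (0.13 to 0.33) at 3 days and 0.61 (0.52 to 0.71) at 5 days. At 7137 bases it is the longest of the 8 in the table, and with the length trend removed these values were -0.29 and -0.20. The higher Runx1 level can therefore not be told apart from the higher ratios of long genes.

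**Figure D3:**
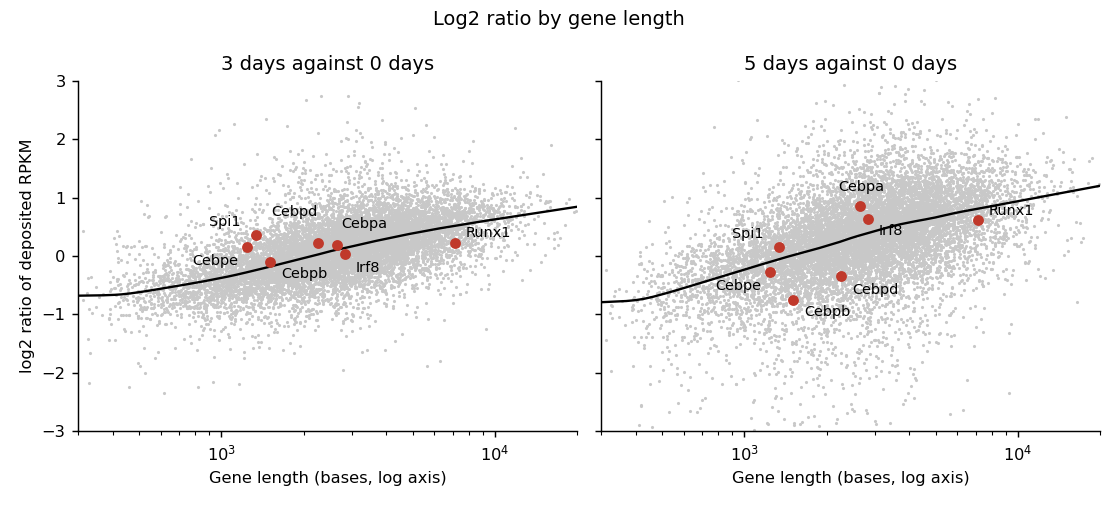
Log2 ratio of deposited RPKM against gene length (bases, log axis) at 3 days (left) and 5 days (right) against 0 days, for genes with at least 1 RPKM in either library (grey), with the lowess trend (black) and 7 factors (red), and with genes beyond 3 or -3 not drawn. Runx1, at 7137 bases, lies below the trend in both panels, and Cebpa lies above it.

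**Figure D4:**
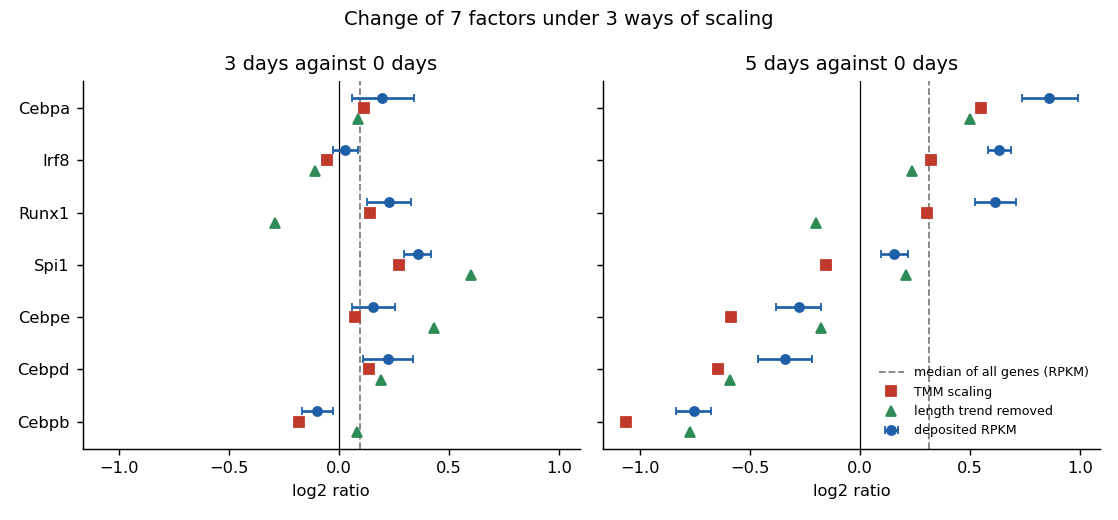
Log2 ratios of 7 factors at 3 days (left) and 5 days (right) against 0 days with the deposited RPKM (circles, bars give the 95% exact counting interval), TMM scaling (squares) and the length trend removed (triangles), with the median of all genes as a dashed line. At 5 days Cebpa and Irf8 are above 0 and Cebpb, Cebpd and Cebpe below 0 in each of these scalings, whereas Spi1 and Runx1 change side.

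Gfi1 encodes a zinc finger repressor that steers progenitors toward neutrophils. The table lists it in 2 rows. The row used here (gene ID 14581, 2862 bases) had 5, 12 and 15 reads, or 0.113, 0.277 and 0.338 RPKM. The other row, NM_001267621, had 8, 11 and 3 reads. The log2 ratio at 5 days was 1.04 (0.05 to 3.40) in the first row, and it was 0.33 when the rows were summed. The value is uncertain because reads that 2 rows of a gene share may be split or dropped by the counting. Its relative Gfi1b, a factor of erythroid cells and platelets with a single row, had 9.19, 7.46 and 12.3 RPKM. For Gfi1 no change was called.

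Among the relatives and partners of the 8 factors, several differed more than the factors themselves. Ddit3, which encodes CHOP, a stress-induced C/EBP protein, had 58.0, 31.7 and 16.1 RPKM and a log2 ratio of -1.84 at 5 days. Cebpg, the remaining C/EBP gene measured, had 9.42, 11.6 and 16.6 RPKM (0.81, or 0.17 with the length trend removed). Of the 6 C/EBP genes, 2 were thus above 0 and 4 below 0 at 5 days.

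Cbfb, the subunit that pairs with RUNX proteins, had 37.4, 55.7 and 72.2 RPKM, with log2 ratios of 0.57 at 3 days and 0.95 at 5 days. With the length trend removed the value at 5 days was 0.54, so Cbfb stayed above 0 where Runx1 did not. Runx3 had a log2 ratio of 0.23 at 5 days, which turned to -0.07 with TMM and -0.33 with the length trend removed. Irf1, an interferon-induced factor, had 91.3, 68.3 and 42.5 RPKM (-1.10). Of the 5 IRF genes with at least 1 RPKM it was the only one at least 2-fold lower at 5 days. None was 2-fold higher, and of all genes 5.91% were lower and 15.5% higher. Irf4, a close relative of Irf8, had 66.3, 74.4 and 55.2 RPKM (-0.26, or -0.90 with the length trend removed). Spib, the second PU.1-like gene, had 171, 209 and 219 RPKM (0.36, or 0.05 with TMM and -0.03 with the length trend removed).

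Of 13 partners and regulators, 2 were at least 2-fold higher and 1 was at least 2-fold lower at 5 days, shares near those of all genes (15.5% and 5.91%), with a median of -0.01 beside 0.31 for all genes. With TMM 2 were higher and 3 lower, and with the length trend removed 1 was higher and 3 lower. Of all 11497 genes 832 were higher and 1141 lower with TMM, and 581 and 875 with the length trend removed. Trib1, a pseudokinase that brings C/EBPα to degradation, had 119.9, 101 and 31.8 RPKM, a log2 ratio of -1.91. Rcor1, a corepressor that works with Gfi1 proteins, had 4.82, 15.4 and 23.1 RPKM (2.24). Ep300, a histone acetyltransferase that acts with C/EBP factors, had 11.2, 24.4 and 31.4 RPKM (1.47, or 0.58 with the length trend removed). Protein was not measured here.

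Of 12 progenitor transcription factors with at least 1 RPKM, 2 were at least 2-fold higher (Erg, 1.11, and Etv6, 1.08) and 0 were lower at 5 days, beside 15.5% and 5.91% of all genes, and with TMM these counts were 0 and 0. Of 14 monocyte, macrophage and dendritic cell transcription factors, 2 were at least 2-fold higher, a share near the 15.5% of all genes. At least 2-fold lower were 3, beside 5.91% of all genes. Zeb2, a zinc finger factor of the monocyte and dendritic cell lineages, had 13.2, 25.9 and 36.6 RPKM (1.46, or 0.56 with the length trend removed), and Tfec, a macrophage factor, 4.24, 8.42 and 13.6 RPKM (1.66). The 3 that were lower, Egr1 (284, 209 and 34.2 RPKM), Egr2 and Nr4a1, are rapidly induced by stimulation. With the length trend removed 1 was at least 2-fold higher and 4 were lower, beside 581 and 875 of all 11497 genes. The list thus moved both ways, with a median of -0.20.

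Target genes were grouped by the factor they are known for. At 5 days, 5 of 11 targets of C/EBPα and PU.1 were at least 2-fold higher and 0 were lower, beside 15.5% and 5.91% of all genes, with a median of 0.67. The 5 were Csf1r, the receptor of M-CSF (26.7, 49.6 and 85.3 RPKM, 1.67), Il6ra (1.74), Mpo, the myeloperoxidase of primary granules (434.6, 581 and 1237 RPKM, 1.51), Csf2rb (1.23) and Fcgr1 (1.08). With TMM Il6ra, Csf1r and Mpo passed, 3 of the 11 beside 832 of all 11497 genes, and the median was 0.36. The other members included Elane (0.35) and Lyz2 (0.01), which did not pass. Csf3r, the G-CSF receptor, has 2 rows in the table and did not reach 1 RPKM.

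The genes of secondary granules, targets of C/EBPε, were lower. At 5 days 6 of 8 were at least 2-fold lower and 0 were higher, beside 5.91% and 15.5% of all genes, with a median of -1.58. Camp, an antimicrobial peptide, had 14235, 7762 and 3609 RPKM (-1.98), and Mmp8, a collagenase, 1017, 1064 and 175 RPKM (-2.53). Chil3 (-0.67) and Itgb2l (-0.72) did not pass. Cebpe itself had a log2 ratio of -0.28, so its target genes differed far more than its own transcript.

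Of 8 inflammatory targets of C/EBPβ and C/EBPδ, 7 were lower by 2-fold or more at 5 days and 0 were higher, again beside 5.91% and 15.5% of all genes, with a median of -2.13. Tnf had 92.0, 60.5 and 6.61 RPKM (-3.78), Il1b 245, 237 and 22.8 RPKM (-3.42) and Il6 85.5, 38.6 and 10.7 RPKM (-2.98). Many of these genes answer to several other factors too. At 3 days 1 of the 8 was at least 2-fold lower, namely Il6 (-1.14, or -0.80 with the length trend removed), beside 2.41% of all genes.

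Of 9 Irf8 targets, 1 was at least 2-fold higher, Naaa (19.4, 33.2 and 68.8 RPKM, 1.82), and 0 were lower at 5 days, a share no larger than the 15.5% of all genes, with a median of 0.10. The median turned to -0.20 with TMM and -0.05 with the length trend removed. Cd74 (-0.53) and Cst3 (-0.12) were among the more abundant of them.

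**Figure D5:**
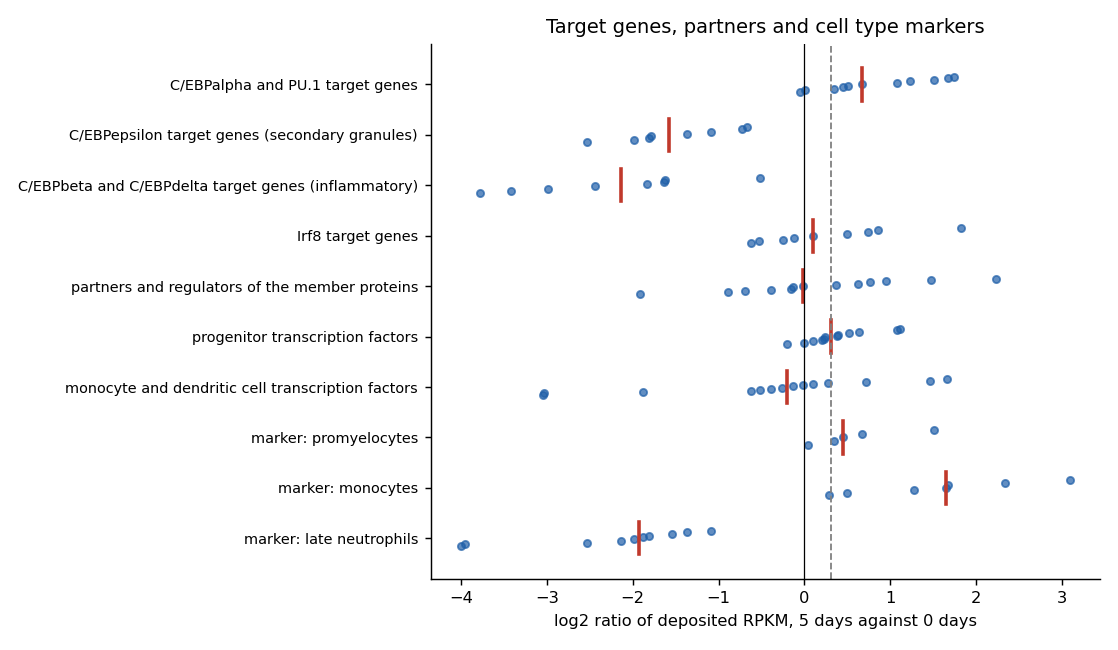
Log2 ratio of deposited RPKM at 5 days against 0 days for each gene (points) with at least 1 RPKM in either library in 7 lists of target genes, partners and transcription factors and 3 lists of cell type markers, with the median of each list (red bar), 0 (solid line) and the median of all genes (dashed line). The lists of C/EBPε targets, inflammatory targets and late neutrophil markers lie below 0 throughout, and the monocyte markers lie above 0 (6 of 7 with TMM).

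Markers of BM cell types differed at the same time points. Their counts stand beside 15.5% of all genes at least 2-fold higher and 5.91% lower at 5 days. Late neutrophil markers were lower at 5 days by 2-fold or more in 10 of the 10 that reached 1 RPKM (median -1.93), and their summed level was 139206, 107912 and 38238 RPKM at 0, 3 and 5 days. Camp, Ltf, Ngp, Mmp8 and Mmp9 stand both in this list and in that of C/EBPε targets. Of 7 monocyte markers, 5 were at least 2-fold higher (median 1.65; 4 of 7 with TMM), with a summed level of 1240, 1636 and 2277 RPKM. All 5 promyelocyte markers were above 0 (median 0.45), and 1 of them, Mpo, passed 2-fold. Mpo, Elane, Prtn3 and Ctsg of these, and Csf1r of the monocyte markers, are also counted above as C/EBPα and PU.1 targets. With TMM 1 promyelocyte marker and 1 monocyte marker were below 0. Markers of B cells (median -0.33), T and NK cells (-0.53), dendritic cells (-0.33) and erythroid cells (-0.30) were lower on balance, and 6 of 6 osteolineage and stromal markers were at least 2-fold lower (-1.44). Of 8 macrophage markers 3 were at least 2-fold higher (median 0.66), and 2 with TMM (0.35) or with the length trend removed (0.18), and the medians of stem and progenitor cell (-0.09), megakaryocyte (-0.05) and endothelial (-0.06) markers were below the 0.31 of all genes. With TMM these last 3 medians were -0.40, -0.35 and -0.36. Ly6g, Trac and Ahsp had no row that was used, and the osteolineage genes Bglap and Sp7 had 2 reads each at 5 days, under the floor of 3. Bglap is nevertheless among the 6 osteolineage and stromal markers counted, whereas Sp7 did not reach 1 RPKM. The 10 genes with the most reads held 12.5%, 10.4% and 5.38% of the reads. The part of cell composition in the levels of the 8 factors was not tested.

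The genes most like each factor in the log2 ratios at 3 and 5 days were sought among 6162 genes averaging 10 RPKM or more, by Euclidean distance over the 3 libraries. For Cebpa they were Zbed3, Reep4 and Egln1, and 101 genes lay within 0.1. For Cebpb they were Pbxip1, Slc17a9 and Cep19, with 22 genes within 0.1, the fewest of the 8. For Cebpd the nearest were Hk3, Srpk2 and Chp1, for Cebpe Ppm1m, Irf4 and Birc3, and for Spi1 Rgl2, Eml2 and Ranbp9. For Runx1 they were Ly9, Phf23 and Ctdp1, with 165 genes within 0.1, the most of the 8, and for Irf8 Phf10, Bcap29 and Ddx27. Gfi1 was nearest to Lipa, St3gal1 and Med13, on few reads. With 3 libraries many genes share a pattern, so likeness describes the values and nothing more.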

How the data were processed

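The authors deposited, for each pair of time points, a table with the whole read counts on each gene, the RPKM, and their own log2 ratio, P value and FDR, which were not used here. The processing notes name the mouse build mm8 and the methods name Cufflinks. The aligner and the number of mice per library are not given in the sources used here. The deposited RPKM are counts divided by gene length and by the total of reads on genes, apart from 18 rows at 0 days and 14 at 3 days that differed by more than 0.1%, with at most 36 reads. Genes without reads, listed at 0.01 RPKM, were set to 0. Positions are from GRCm38, a different build from that of the files, and were taken by gene name only.

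For a name with several rows (232 names) the one with the largest RPKM averaged over libraries was taken. Changes are log2 ratios of RPKM + 0.1. Exact intervals (95%) cover counting error only, since PCR reads are not independent molecules. Intervals of pair ratios use a normal approximation of the log odds ratio (scipy 1.17.1). A count of 3 reads was the floor, and genes with at least 1 RPKM in either library were compared at 2-fold and 1.5-fold. No test of the time points was run, since each has 1 library.

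Alternatives were TMM factors (edgeR 4.0.16), median-of-ratios factors (DESeq2 1.42.0), reads outside the 100 most abundant genes, pseudocounts of 1 and 0.01, summed rows, minimums of 0 and 5 RPKM, fold thresholds of 1.5 and 4, and removal of the length trend (lowess, span 0.3, statsmodels 0.14.6). The steps were tested on simulated data. The 8 members and the lists were chosen with earlier results of these data known. From each list the most abundant genes and the largest rise and fall were named by rule, and for each member the 3 nearest genes. Other genes of the lists were named after their values were seen. A list of genes repressed by Gfi1 is not reported here.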

Additional observations from a re-analysis of the deposited data

How the results depend on the processing

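No paired analysis was possible because each time point has 1 library, and for the same reason no library could be left out. The median log2 ratio of the 8 factors at 5 days against 0 days, 0.38 with the deposited RPKM, was 0.078 with TMM, 0.089 with median-of-ratios factors, 0.18 without the 100 most abundant genes, 0.21 with a pseudocount of 1, 0.24 with summed rows, 0.017 with the length trend removed and 0.16 without Gfi1. The median of 0.21 at 3 days against 0 days lay between 0.11 and 0.21 under these. That of 0.0072 at 5 days against 3 days changed sign, to -0.19 with TMM, -0.28 with summed rows, -0.23 with the length trend removed and -0.20 without Gfi1. TMM and median-of-ratios factors each put 1 factor, Cebpb, at least 2-fold lower at 5 days against 0 days. A threshold of 1.5-fold put 3 factors higher and 1 lower at 5 days against 0 days, and 2 higher and 1 lower at 5 days against 3 days. At this threshold, tried after seeing the data with other scalings, TMM gave 0 higher and 3 lower in both comparisons. Removal of the length trend gave 0 higher and 2 lower at 5 days against 0 days, 0 and 3 at 5 days against 3 days, and 1 and 0 at 3 days. The last stand beside 911 and 867 of all 11325 genes. At the stricter 2-fold, this removal put 581 of 11497 genes higher and 875 lower at 5 days against 0 days. At 5 days against 3 days it put 75 of 11375 genes higher and 561 lower, and TMM 74 and 549.

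Spi1 at 5 days against 0 days reversed to -0.15 with TMM, -0.14 with median-of-ratios factors and -0.046 without the 100 most abundant genes. With the length trend removed, Cebpb at 3 days reversed to 0.083 and Runx1 to -0.29 at 3 days and -0.20 at 5 days. The pair differences reversed by it were Cebpb minus Runx1 (0.37), Cebpb minus Irf8 (0.19) and Runx1 minus Irf8 (-0.18) at 3 days, and Cebpe minus Runx1 (0.021) and Spi1 minus Runx1 (0.41) at 5 days. The cause of the length trend was not tested. Over all genes, those at least 2-fold higher at 5 days against 0 days numbered 1786 with the deposited RPKM, 832 with TMM and 581 with the length trend removed, and those lower 680, 1141 and 875. Gfi1 rests on 5 to 15 reads.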

Other observations

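Transcription factors of other lineages went both ways at 5 days. Of 9 with at least 1 RPKM, 1 was at least 2-fold higher, Tcf7 (3.22, 3.66 and 7.34 RPKM at 0, 3 and 5 days), and 0 were lower, beside 15.5% and 5.91% of all genes, with a median log2 ratio of -0.03. With TMM, and with the length trend removed, 0 were higher and 1, Gata3, was lower, and the median with TMM was -0.34. Pax5, the factor of B cell identity, had 165, 129.6 and 104.5 RPKM (-0.66), whereas Ebf1, another B cell factor, had 90.6, 91.7 and 85.2 RPKM (-0.09). Gata1, the factor of erythroid cells and megakaryocytes, had 22.4, 16.0 and 21.9 RPKM.

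The low level of Gfi1 goes with the way it is listed. The 232 names with more than 1 row had a median mean level of 0.341 RPKM, and 29.7% of them reached a mean of 1 RPKM. For the 17018 names with 1 row these values were 4.35 RPKM and 65.1%. Csf3r, Irf3, Irf5 and Irf7 are among the names with 2 rows, and each stayed below 1 RPKM in the row used, whereas Ctss, also with 2 rows, had 3.71, 3.65 and 6.24 RPKM. Whether reads on shared sequence were left out for these genes was not tested.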
